A study of Mus musculus with 59 samples.

Results

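Fibroblast growth factor (FGF) signalling in the epiblast was followed through 9 genes, the ligands Fgf4 and Fgf15, the receptors Fgfr1 and Fgfr2, the feedback inhibitors Spry2, Spry4 and Dusp6, and the transcription factors Etv4 and Etv5. The genes were chosen by symbol, and all 9 were found among the 22119 genes listed in the RNA-seq of 14 single mouse epiblasts dissected at E6.25, before gastrulation. The Ehmt2 cross gave 4 control and 4 Ehmt2-/- epiblasts and the Ezh2 cross gave 3 control and 3 Ezh2-/- epiblasts. Ehmt2 encodes G9a, which dimethylates lysine 9 of histone H3 (H3K9me2), and Ezh2 encodes the enzyme that trimethylates lysine 27 of the same histone (H3K27me3).

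Knockouts came from matings between heterozygous parents and carried their deletion in every tissue of the embryo, the extraembryonic ones included. The labels give the genotypes as G9a+/+, G9a-/-, Ezh+/+ and Ezh-/- on a mixed background, whereas the methods also count heterozygous embryos as controls, so a control may carry 1 intact allele. Heterozygotes of the Ehmt2 line had been bred to mice with a ΔPE-Pou5f1-EGFP transgene, a reporter active in the early epiblast. Each epiblast was 1 library, made after amplification from 750 pg of RNA, and is numbered as in its title. Which litter each epiblast came from is not given in the sources used here.

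FGF ligands bind receptor tyrosine kinases together with heparan sulphate, and adaptor proteins pass the signal to the RAS and ERK kinase cascade. ERK activity switches on genes that include sprouty proteins, the ERK phosphatase DUSP6 and ETS factors such as ETV4 and ETV5, so their RNA is commonly read as a sign of signalling. In the early mouse embryo FGF4 from epiblast cells sustains the trophoblast stem cells of the adjoining extraembryonic ectoderm, where FGFR2 is the main receptor. FGFR1 is the principal receptor of the epiblast itself.

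Of the 9 genes, Fgf4, Fgf15 and Fgfr2 are on chromosome 7 and the others on separate chromosomes of GRCm38. The Fgfr1 transcript runs from 25518759 to 25575718 on chromosome 8, that of Spry2 from 105891947 to 105896819 on chromosome 14 and that of Spry4 from 38586247 to 38601415 on chromosome 18. Dusp6 lies on chromosome 10 from 99263231 to 99267488, Etv4 on chromosome 11 from 101769747 to 101785371 and Etv5 on chromosome 16 from 22381309 to 22439719. These 6 transcripts are annotated as protein-coding, and counts were made over their exons.

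Total counts lay between 30161171 and 68464895 per epiblast over all transcripts, and between 12486142 and 28414902 when each gene was counted through 1 transcript. Levels are given in CPM, edgeR's counts scaled to library size, of the transcript of each gene with the highest mean count. The targeted genes followed the labels. Ehmt2 was at 10.5 to 34.1 CPM in its controls and at 3.29 to 9.79 CPM in Ehmt2-/- epiblasts, and Ezh2 was at 51.6 to 108 CPM in its controls and at 11.4 to 16.0 CPM in Ezh2-/- epiblasts. Some libraries stood apart. Control 4 and knockout 4 of the Ehmt2 cross were the most deeply sequenced. The study's methods compare each knockout with all controls, but its table of changed genes sets knockout 4 against control 4, and the fit of the Ehmt2 cross has a term for this comparison set. Without that term 52 transcripts were called in the cross instead of 334. In the Ezh2 cross, control 2 and knockout 1 had far more RNA of visceral endoderm, an extraembryonic layer that covers the epiblast, with summed levels of 11 markers of 1128 and 2575 CPM against 11.3 to 22.6 CPM in the other Ezh2 epiblasts. Epiblast markers were present throughout, and none of the 8 was at 0 in any library.

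In control epiblasts the strongest of the 9 genes, once levels were divided by transcript length, was Etv5, at 45.0 ± 3.10 CPM per kb (SD, n = 7). Spry2, an intracellular inhibitor of receptor tyrosine kinase signalling, followed at 18.5 ± 2.88 CPM per kb. Each of these genes was above the next in all 7 controls. Dusp6 at 10.8 ± 1.59 CPM per kb and Spry4, another sprouty inhibitor, at 8.69 ± 1.89 CPM per kb came next, and their ranges overlapped. Fgf15, the mouse counterpart of human FGF19, had 7.15 ± 1.38 CPM per kb and Fgfr1 had 6.66 ± 1.05 CPM per kb. Their order held in only 4 of 7 controls. Fgfr1 was above Etv4 in all 7 controls. Etv4 at 2.48 ± 0.597 CPM per kb, Fgf4 at 2.12 ± 1.29 CPM per kb and Fgfr2 at 0.977 ± 0.492 CPM per kb formed the lower end, where each gene exceeded the next in 5 of 7 controls. By mean level, 4 of the 5 inhibitors and transcription factors came before the ligands and receptors among the 9 genes, Etv4 being the exception, although Spry4 was above Fgf15 in only 6 of 7 controls. Transcript lengths are those of GENCODE vM21 and may differ from the older gene models used for counting.

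**Figure D1:**
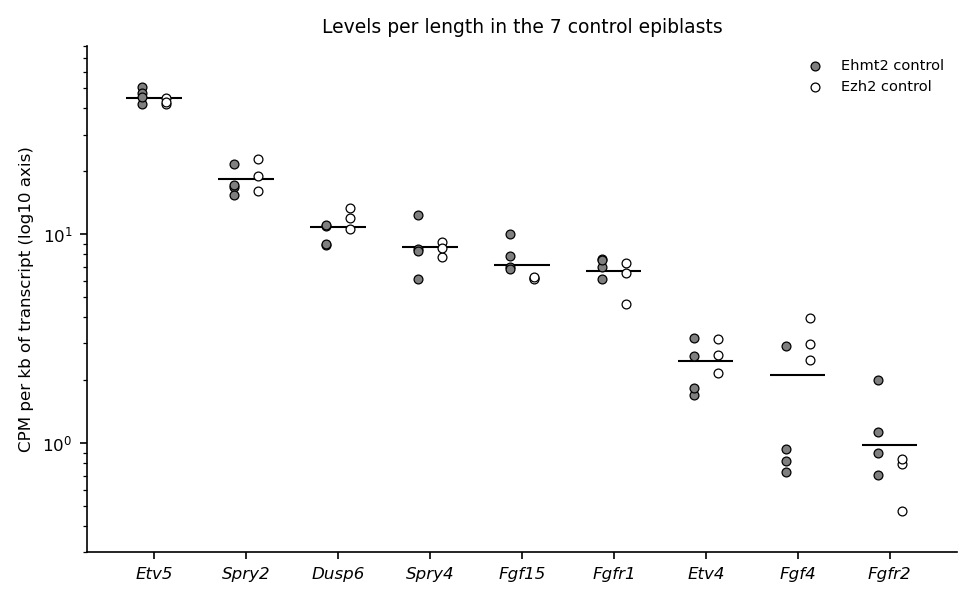
Level of each gene in CPM per kb of transcript, log10 axis, in 4 Ehmt2 controls (filled) and 3 Ezh2 controls (open), each point 1 epiblast and each bar the mean of 7. Etv5 had the highest mean, 45.0 CPM per kb, and Fgfr2 the lowest, 0.977 CPM per kb.

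Loss of G9a was compared first. None of the 9 genes differed between Ehmt2-/- and control epiblasts at an adjusted p under 0.05 (edgeR quasi-likelihood test, Benjamini-Hochberg adjustment over 49872 transcripts), a threshold passed by 0.67% of all transcripts tested. At an unadjusted p under 0.05 there was 1 of 9, Fgfr2, against 11.8% of all transcripts. The 9 genes were read through 1 transcript each, whereas shares of all transcripts, here and below, include every isoform tested. In a fit with 1 transcript per gene, 185 of 13738 passed the adjusted threshold. In that fit 1027 were higher and 956 lower at an unadjusted p under 0.05 (edgeR). The median log2 fold change was -0.15 over the 9 genes and -0.01 over all transcripts, with 4 genes above 0 and 5 below. In no gene did the groups separate completely, a pattern seen upward in 2.55% and downward in 2.54% of all transcripts.

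Fgfr2 had the widest difference of the 9. It was at 8.84, 5.02, 3.98 and 3.11 CPM in controls 1 to 4, and at 68.7, 15.2, 18.5 and 5.69 CPM in knockouts 1 to 4. Knockouts 1 to 3 were above every control, whereas knockout 4 was above control 4 but below control 1. The log2 fold change was 2.13 (standard error 0.50, 95% interval 1.05 to 3.21, adjusted p = 0.0914 by edgeR), which did not pass the threshold. The two-sided exact permutation test on log2(CPM + 0.5) gave p = 0.0571, where the smallest p that 4 epiblasts against 4 allow is 0.0286. The call depended on the fit. Without control 4 and knockout 4 the log2 fold change was 2.52 with an edgeR adjusted p of 0.0448, without knockout 1 it was 1.32 with an edgeR adjusted p of 0.098, and DESeq2 gave 2.13 with an adjusted p of 0.0414. Without control 1, 2 or 3 the edgeR adjusted p was 0.193, 0.262 and 0.259, and without the term for the comparison set it was 0.334 at a log2 fold change of 2.37. Measured against the mean of its own controls, each knockout was higher, by 3.50, 1.35, 1.63 and 0.78 on the log2 scale.

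The difference between knockout 4 and control 4 depended on which Fgfr2 transcript was read. The transcript with the highest count, ENSMUST00000153166 (chromosome 7 from 130162512 to 130266245 in GRCm38, minus strand), is annotated as subject to nonsense-mediated decay, but its counts were nearly those of the protein-coding ENSMUST00000117872. Reads shared by isoforms were counted for each of them. All 23 Fgfr2 transcripts tested had a positive log2 fold change, from 1.90 to 3.50, and none passed an edgeR adjusted p of 0.05. Knockout 4 was above control 4 in 5 of these transcripts and below it in 18. For ENSMUST00000119260, with a mean count of 122.5, the levels were 1.05 CPM in knockout 4 and 1.44 CPM in control 4. The 5 with knockout 4 above control 4 included the most highly counted transcripts. They also included the least counted ones tested, ENSMUST00000129103 and ENSMUST00000133806, with mean counts of 19.6 and 15.5. What sets these 5 apart from the rest was not tested.

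Some markers of extraembryonic ectoderm, the trophoblast tissue next to the epiblast, had a fold change in the same direction as Fgfr2. Of 10 such markers 9 were tested, with a median log2 fold change of 2.51 in the Ehmt2 cross. The threshold was passed by 3 of them, all upward, against 0.67% of all transcripts. They were Elf5 (log2 fold change 6.03, edgeR adjusted p = 0.0114), Esrrb (5.33, 0.00311) and Tfap2c (3.8, 0.0120). Elf5, a trophoblast transcription factor, was at 60.9, 5.87 and 12.3 CPM in knockouts 1 to 3 and at 0 in knockout 4, against 0 to 0.535 CPM in the controls. In 1 of the 10 markers every knockout was above every control, a pattern shown by 2.55% of all transcripts. The summed level of the 10 markers was 394, 116, 148 and 25.3 CPM in knockouts 1 to 4 and 39.1 to 142 CPM in controls. This sum was clearly above the controls only in knockout 1, whereas Elf5 was above them in knockouts 1 to 3. Eomes weighed most in the sum, with a mean count of 2710 over all epiblasts against 213 for Elf5. In control 4 and knockout 4, where 5 of the 10 markers were at 0, Fgfr2 was at 3.11 and 5.69 CPM. The part of extraembryonic RNA in the difference in Fgfr2 was not tested. More Fgfr2 RNA per epiblast cell cannot be told apart from more cells that express it. The summed level of the 8 epiblast markers was 1646 to 2362 CPM in Ehmt2-/- epiblasts and 2655 to 3083 CPM in their controls, although none of the 8 passed the threshold. Dnmt3b weighed most in this sum, with a mean count of 62358 over all epiblasts against 8580 for Tdgf1, the next highest. The sum therefore mostly follows Dnmt3b.

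**Figure D2:**
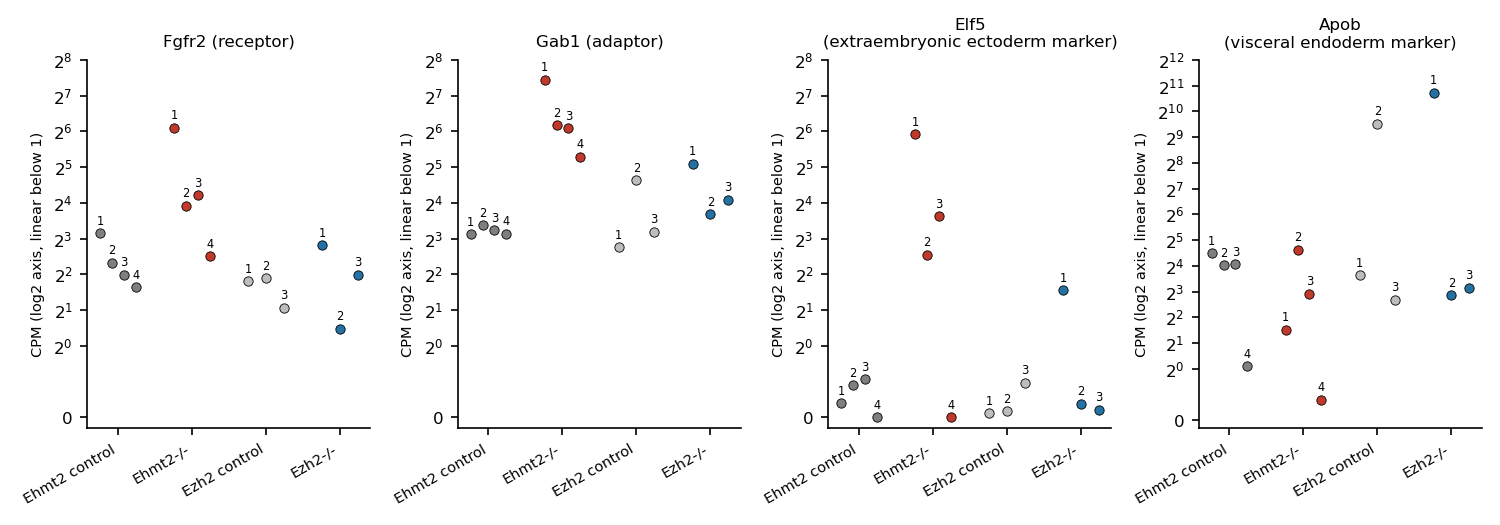
Levels of Fgfr2, Gab1, Elf5 and Apob in CPM (log2 axis, linear below 1) in each epiblast, numbered by replicate. Fgfr2, Gab1 and Elf5 were highest in Ehmt2-/- epiblast 1 (68.7, 175 and 60.9 CPM), Elf5 was at 0 in Ehmt2-/- epiblast 4, and Apob was highest in Ezh2-/- epiblast 1 (1700 CPM) and Ezh2 control 2 (733 CPM).

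Fgfr1 stayed within a narrow range. It was at 38.4, 35.1, 30.5 and 37.7 CPM in Ehmt2 controls 1 to 4, and at 30.4, 31.5, 31.5 and 34.6 CPM in knockouts. The groups overlapped, and the log2 fold change of -0.15 had a 95% interval of -0.41 to 0.12. Per length, Fgfr1 exceeded Fgfr2 by 3.82 to 10.7 times in the 4 controls. The ratio was 0.390, 1.83 and 1.50 in knockouts 1 to 3 and 5.35 in knockout 4, so that Ehmt2-/- epiblast 1 was the only one of the 14 libraries with more Fgfr2 than Fgfr1.

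Of the ligands, Fgf4 was at 2.48, 2.83, 8.82 and 2.21 CPM in Ehmt2 controls 1 to 4 and at 4.55, 6.80, 2.95 and 2.52 CPM in knockouts. Control 3 was 3.99 times the lowest control, and the whole range of the knockouts lay within that of the controls. The log2 fold change was 0.06 with an interval of -0.85 to 0.97, so a change of up to about this size in either direction was not detectable. Fgf15 was at 14.2, 12.6, 12.3 and 18.1 CPM in controls and at 5.32, 14.5, 12.8 and 20.4 CPM in knockouts. Knockout 1 was the lowest of all 14 epiblasts, the other 3 knockouts overlapped the controls, and the log2 fold change was -0.15 (interval -0.73 to 0.43). Fgf4 and Fgf15 are neighbours on chromosome 7, 31.3 kb apart (144861386 to 144865243 and 144896531 to 144900953 in GRCm38). Ehmt2 control 3 was high in Fgf4 and not in Fgf15, and Ehmt2-/- epiblast 1 was low in Fgf15 and not in Fgf4.

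The inhibitors and transcription factors downstream of the receptors showed small differences after loss of G9a. Spry2 was at 35.3, 32.1, 36.0 and 45.3 CPM in controls and at 25.0, 31.8, 27.04 and 47.5 CPM in knockouts. Spry4 was at 58.8, 40.3, 39.4 and 29.1 CPM in controls and at 31.8, 31.3, 41.9 and 38.4 CPM in knockouts. The groups of both genes overlapped, with log2 fold changes of -0.21 (interval -0.50 to 0.08) for Spry2 and -0.20 (interval -0.61 to 0.21) for Spry4. Dusp6 was at 24.7, 30.7, 31.0 and 25.0 CPM in controls and at 23.7, 30.5, 23.1 and 35.6 CPM in knockouts, a log2 fold change of 0.01 (interval -0.36 to 0.37).

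Etv5 was at 200.3, 167, 188 and 181 CPM in Ehmt2 controls 1 to 4 and at 128, 179, 147 and 203 CPM in knockouts. Knockouts 1 and 3 were below every control and knockout 4 was above every control, and the log2 fold change was -0.18 (interval -0.46 to 0.10). Etv4 was at 7.67, 6.29, 4.06 and 4.39 CPM in controls and at 8.32, 8.01, 2.14 and 8.95 CPM in knockouts. Here 3 knockouts were above every control and knockout 3 was the lowest of all epiblasts, which left the interval wide, -0.59 to 1.15 around a log2 fold change of 0.28. Knockout 4 had the highest Spry2, Dusp6, Etv4 and Etv5 of the 4 knockouts. Each of its differences from control 4 was positive.

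**Figure D3:**
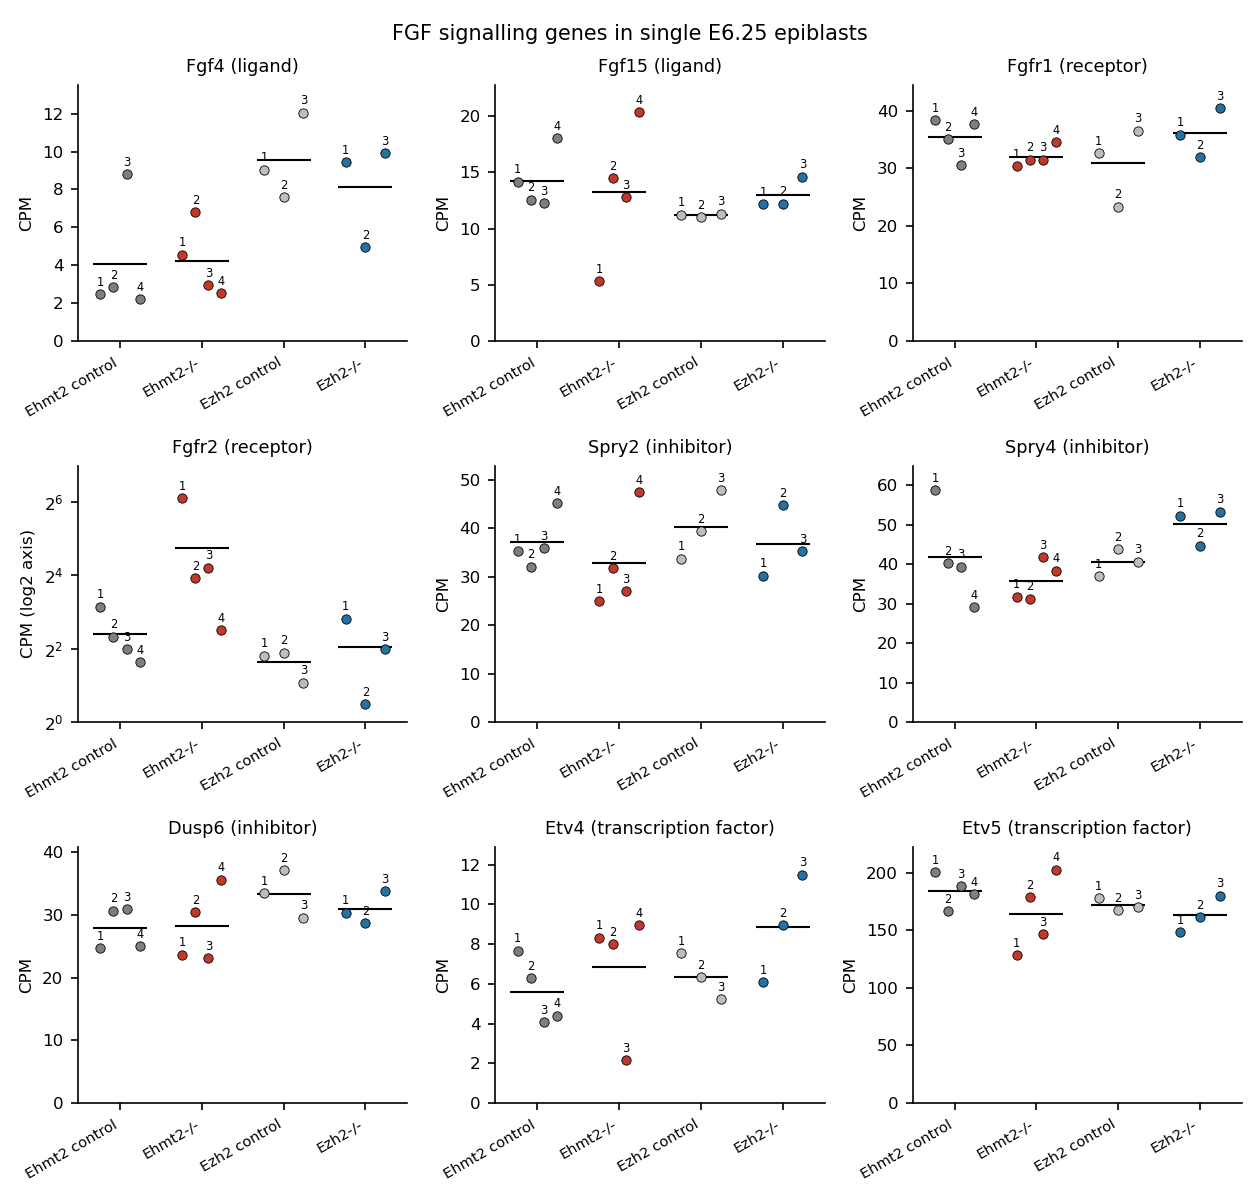
Level of each of the 9 genes in CPM in every epiblast, numbered by replicate, with bars at the group means; the axis of Fgfr2 is on a log2 scale and the others start at 0. Fgfr2 was between 5.69 and 68.7 CPM in Ehmt2-/- epiblasts against 3.11 to 8.84 CPM in their controls. The groups of all 9 genes overlapped in the Ehmt2 cross.

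Loss of EZH2 was compared next. None of the 9 genes passed an adjusted p of 0.05 in Ezh2-/- epiblasts (edgeR quasi-likelihood test, Benjamini-Hochberg adjustment over 50855 transcripts), where 0.0118% of all transcripts did, each of these a transcript of Ezh2 itself. At an unadjusted p under 0.05 there was again 1 of 9, Spry4, against 7.02% of all transcripts, and DESeq2 also called 0 of 9. With 3 epiblasts against 3 the exact permutation test cannot give a p below 0.1. The median log2 fold change was 0.22 over the 9 genes and 0.01 over all transcripts, with 5 genes above 0 and 4 below.

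In 2 of the 9 genes, Fgf15 and Spry4, every knockout was above every control, a pattern that 6.44% of all transcripts showed. Spry4 was at 37.1, 43.8 and 40.7 CPM in controls and at 52.3, 44.7 and 53.3 CPM in knockouts. Its log2 fold change was 0.31 (standard error 0.13, interval 0.02 to 0.60, edgeR adjusted p = 0.690), and without control 2 and knockout 1, the libraries rich in visceral endoderm RNA, it was 0.34 with an edgeR adjusted p of 0.855. Fgf15 was at 11.2, 11.0 and 11.3 CPM in controls and at 12.2, 12.2 and 14.6 CPM in knockouts, a log2 fold change of 0.22 (interval -0.19 to 0.62). Both gaps were narrow. The lowest Spry4 knockout exceeded the highest control by less than 1 CPM, as did the lowest Fgf15 knockout. The downward pattern, every knockout below every control, was found in none of the 9 genes and in 6.68% of all transcripts.

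Fgfr2 behaved less uniformly in this cross. It was at 3.50, 3.71 and 2.10 CPM in Ezh2 controls and at 7.06, 1.39 and 3.96 CPM in knockouts. Knockout 1, a library rich in visceral endoderm RNA, was the highest and knockout 2 the lowest of the 6 epiblasts. The log2 fold change of 0.41 (interval -0.70 to 1.53) was -0.06 without control 2 and knockout 1 and -0.21 without knockout 1, so its direction rested on that library. Fgfr1 was at 32.6, 23.3 and 36.6 CPM in controls and at 35.8, 32.0 and 40.4 CPM in knockouts, and its log2 fold change of 0.23 (interval -0.17 to 0.63) was 0.07 without control 2 and knockout 1. Of these epiblasts control 2 had the least Fgfr1.

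Fgf4 was at 9.05, 7.59 and 12.0 CPM in Ezh2 controls and at 9.45, 4.96 and 9.92 CPM in knockouts. These groups overlapped (log2 fold change -0.24, interval -0.90 to 0.43). Spry2 was at 33.8, 39.5 and 47.9 CPM in controls and at 30.2, 44.9 and 35.3 CPM in knockouts, with a log2 fold change of -0.13 (interval -0.53 to 0.27). Dusp6, which dephosphorylates ERK, was at 33.5, 37.2 and 29.6 CPM in controls and at 30.4, 28.7 and 33.7 CPM in knockouts (log2 fold change -0.11, interval -0.43 to 0.21). Etv5 was at 178, 168 and 169.8 CPM in controls and at 148, 162 and 180.1 CPM in knockouts, a log2 fold change of -0.07 whose interval of -0.31 to 0.17 was the narrowest of the 9 genes in either cross. Etv4 was at 7.54, 6.34 and 5.22 CPM in controls and at 6.09, 8.96 and 11.5 CPM in knockouts (log2 fold change 0.48, interval -0.14 to 1.1). Knockouts 2 and 3 were above every Etv4 control and knockout 1 was not.

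**Figure D4:**
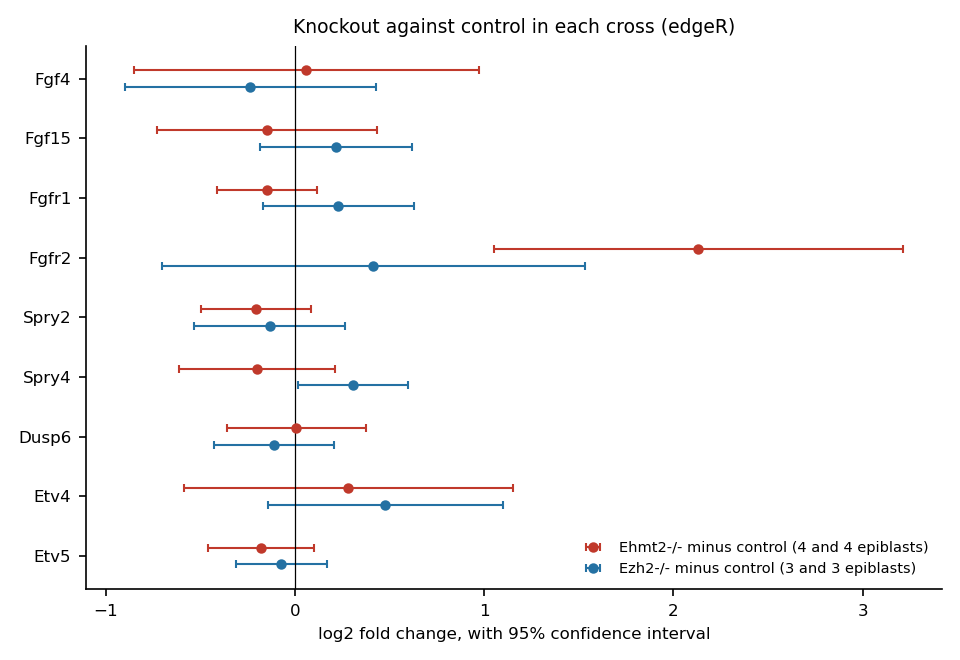
Log2 fold change of each gene, knockout minus control, with its 95% confidence interval, in the Ehmt2 cross (red, 4 and 4 epiblasts) and the Ezh2 cross (blue, 3 and 3 epiblasts). The intervals of Fgfr2 in the Ehmt2 cross (1.05 to 3.21) and of Spry4 in the Ezh2 cross (0.02 to 0.60) did not reach 0, and neither gene passed an adjusted p of 0.05.

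Whether the knockouts differed in their effect was tested as the difference between the crosses over all 14 epiblasts. None of the 9 genes passed an edgeR adjusted p of 0.05, as against 0.0579% of 55248 transcripts, and DESeq2 called 0 of 9 as well. At an unadjusted p under 0.05 there was 1 of 9, Fgfr2, against 8.33% of all transcripts. The difference was 1.72 on the log2 scale for Fgfr2 (interval 0.05 to 3.39, adjusted p = 0.586 by edgeR) and -0.51 for Spry4 (interval -1.05 to 0.03, adjusted p = 0.623 by edgeR). For the other 7 genes it lay between -0.37 and 0.30.

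The wider pathway was described with 64 further genes, of which 61 were listed and 51 could be tested in the Ehmt2 cross and 53 in the Ezh2 cross. Only 1 of them, Gab1, passed an edgeR adjusted p of 0.05 in the Ehmt2 cross, upward, and 0.67% of all transcripts passed it. Gab1 is an adaptor protein that couples receptor tyrosine kinases to downstream signalling. At an unadjusted p under 0.05 there were 6 genes above and 5 below 0 among the 51, against 11.8% of all transcripts. Gab1 was at 8.77, 10.4, 9.36 and 8.78 CPM in controls and at 175, 72.6, 67.8 and 39.3 CPM in knockouts. Every knockout was above every control, and the log2 fold change was 3.15 (standard error 0.33, interval 2.43 to 3.86, edgeR adjusted p = 0.00155). It remained past the threshold in all 16 alternative fits, with log2 fold changes of 2.68 to 3.46. Like Elf5, Gab1 was highest in knockout 1. In replicate 4, where Elf5 was at 0 in both libraries, Gab1 was at 39.3 CPM in the knockout and 8.78 CPM in the control. Whether extraembryonic RNA had a part in the difference in Gab1 was not tested. In the Ezh2 cross Gab1 was at 6.81, 24.8 and 9.13 CPM in controls and at 34.2, 12.8 and 17.0 CPM in knockouts (log2 fold change 0.65, edgeR adjusted p = 0.837), with the highest value of each group in the library rich in visceral endoderm RNA. The difference between crosses was 2.49 (interval 1.16 to 3.83) and did not pass an adjusted p of 0.05 (0.248 by edgeR).

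Among the other ligands Fgf5, a marker of the postimplantation epiblast, had the highest level per length, at 161, 199.6, 166 and 299 CPM in Ehmt2 controls and at 82.0, 97.9, 132 and 207 CPM in knockouts. Knockouts 1 to 3 were below every control, knockout 4 was above 3 of the controls, and the log2 fold change of -0.70 (interval -1.01 to -0.38) missed the threshold at an edgeR adjusted p of 0.0548. Gpc3, a heparan sulphate proteoglycan of the cell surface, was close behind, at 20.7 to 31.2 CPM in controls and 9.15 to 20.8 CPM in knockouts (log2 fold change -0.99, edgeR adjusted p = 0.0555). Dusp9, an ERK phosphatase of the same family as DUSP6, was above every control in every knockout of both crosses, at 22.3 to 64.7 CPM against 7.90 to 19.3 CPM in the Ehmt2 cross and at 23.7 to 30.3 CPM against 12.5 to 20.4 CPM in the Ezh2 cross. That pattern was shown by 2.55% of all transcripts in the Ehmt2 cross and by 6.44% in the Ezh2 cross. Its log2 fold changes were 1.46 (edgeR adjusted p = 0.103) and 0.67 (edgeR adjusted p = 0.549). Dusp9 and Gpc3 are both on chromosome X, and the study's methods do not give the sex of these epiblasts. A part of sex in these differences was not tested. Frs2, the docking protein of FGF receptors, had a log2 fold change of 0.47 in the Ehmt2 cross (edgeR adjusted p = 0.123).

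Of the genes with the highest level per length in the remaining roles, all but Fgfrl1 moved little. Nras of the kinase cascade, Shc1 among the adaptors, Spred2 among the inhibitors and Etv1 among the transcription factors had log2 fold changes between -0.32 and 0.30 in the Ehmt2 cross and between -0.16 and 0.12 in the Ezh2 cross. Fgfrl1, an FGF receptor that lacks a kinase domain, had a log2 fold change of -1.07 in the Ehmt2 cross at no more than 4.07 CPM in any epiblast (edgeR adjusted p = 0.404). In the Ezh2 cross none of the 53 genes passed the threshold by edgeR and 1, Elk3, did by DESeq2, with 4 genes above and 1 below 0 at an unadjusted p under 0.05, against 7.02% of all transcripts. Among the smallest p-values there were those of the ETS factor Elk3 (log2 fold change 1.26), the ligand Fgf9 (3.20, at no more than 1.1 CPM in this cross), the inhibitor Il17rd (0.53) and Dusp9, with edgeR adjusted p-values of 0.404 to 0.549. Il17rd was below 0 in the Ehmt2 cross, -0.39, and the difference between the crosses was -0.92 (edgeR adjusted p = 0.215). Over all genes tested the median log2 fold change of the wider pathway was 0.09 in the Ehmt2 cross, with 30 above 0 and 21 below, and 0.06 in the Ezh2 cross, with 29 above and 24 below.

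**Figure D5:**
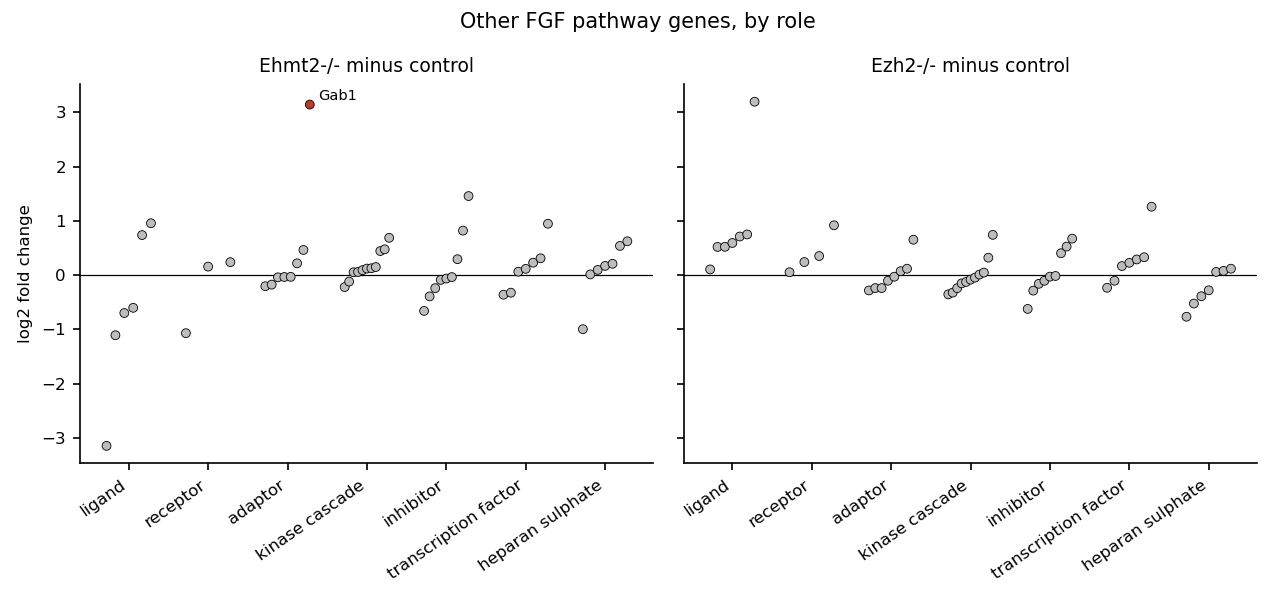
Log2 fold change, knockout minus control, of each tested gene of the wider FGF pathway, sorted by role, in the Ehmt2 cross (51 genes) and the Ezh2 cross (53 genes). The red point, Gab1 at 3.15, is the only gene past an adjusted p of 0.05.

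Variation between epiblasts of 1 group was also compared. The standard deviation of log2(CPM + 0.5) among Ehmt2 controls ranged from 0.11 for Etv5 to 0.83 for Fgf4, and among Ezh2 controls from 0.02 for Fgf15 to 0.38 for Fgfr2. After each gene was centred within its group, the mean of Spry2, Spry4, Dusp6, Etv4 and Etv5 was highest in Ehmt2-/- epiblast 4 (0.38 above its group mean on the log2 scale) and lowest in Ehmt2-/- epiblast 3 (0.34 below). Of 5999 other genes with a mean of at least 10 CPM, Asxl1, Gigyf1 and Mau2 ran most closely with this mean over the 14 epiblasts, with Pearson correlations of 0.90, 0.88 and 0.87. Without control 4 and knockout 4 of the Ehmt2 cross these were 0.84, 0.81 and 0.78. The points share libraries that differ in depth, and no p was computed.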

How the data were processed

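The authors trimmed reads, aligned them to GRCm38 with TopHat2 and counted them per Ensembl transcript with HTSeq-count; the deposited raw counts list only transcripts with at least 1 count, and absent ones were taken as 0. Strandedness of counting is not given in the sources used here. Of 72515 transcripts, 70021 (96.6%) matched GENCODE vM21, which gave names, positions and lengths. A row of unaligned reads in the files of Ehmt2 control 4 and knockout 4 (12.6% and 13.3% of their totals) was left out. Each cross was fitted on all transcripts passing filterByExpr with edgeR 4.0.16 in R 4.3.3 (TMM, glmQLFit, glmQLFTest); CPM were scaled over all 14 epiblasts. Code was tested on simulated counts.

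The 9 genes and all lists were chosen with earlier results of these data known. Genes of the wider pathway were named if called, highest per length in their role, or among the 5 smallest p-values of a cross; 1 that the rule names is not reported here. Replicates are separate embryos. The remaining 45 samples of the series were not analysed here. Same-numbered controls and knockouts correlated by 0.0611 to 0.416 in the Ehmt2 cross, highest in replicate 4, and by -0.181 to 0.230 in the Ezh2 cross. Different-numbered ones correlated by -0.281 to 0.199 and by -0.291 to 0.259. Litters are not given, and numbers were not taken as pairs in the main fits. The exception was replicate 4 of the Ehmt2 cross, whose control and knockout formed a comparison set. Alternatives used DESeq2 1.42.0, other scalings and filters, and omitted libraries. Figures were drawn with matplotlib 3.10.9.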

Additional observations from a re-analysis of the deposited data

Results flagged for a closer look

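Control 3 of the Ehmt2 cross had 8.82 CPM of Fgf4 where the other 3 controls had 2.21 to 2.83 CPM, and it stood further from them than Dixon's test allows at the 95% level for 4 samples. Ehmt2-/- epiblast 3 was set apart in the same way by its low Etv4, 2.14 CPM against 8.01 to 8.95 CPM in the other 3 knockouts. These were 2 of 20 groups examined, and chance alone sets apart about 1 in 20.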

How the results depend on the processing

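Of the recomputed log2 fold changes of single genes, 321 kept their direction and side of the threshold, 5 newly passed it and 16 changed direction. The lowest counts were 52 for Fgfr2, 82 for Etv4 and 99 for Fgf4, so counting error was largest for these, while Fgf4 and Fgfr2 varied among Ehmt2 controls by 77.5% and 48.2% of their means (SD). In the Ehmt2 cross, 334 transcripts were called; the count was 1557 with DESeq2, 641 without the filter on low counts, 185 with 1 transcript per gene, 52 without the term for the comparison set, 573 without replicate 4 of both genotypes, and 103 to 591 when 1 epiblast was left out. Of the 9 genes, Fgfr2 alone was called, 1 gene each, by DESeq2, without the filter (edgeR adjusted p = 0.023) and whenever control 4, knockout 4 or both were left out. Leaving out control 4, knockout 4 or both is nearly the same fit and not separate evidence. Either library alone in its comparison set does not inform the knockout effect. Leaving out 1 epiblast gave 0 to 1 genes. The wider pathway had 1 called gene, but 6 with DESeq2, 4 without the filter, 3 with 1 transcript per gene, 3 without replicate 4 of both genotypes, and 1 to 3 with 1 epiblast left out. In the Ezh2 cross 6 transcripts were called, 330 with DESeq2, 30 without the filter, 0 with 1 transcript per gene, 30 without control 2 and knockout 1 (chosen after seeing the data), and 0 to 28 with 1 epiblast left out; DESeq2 called 1 wider pathway gene. Between crosses 32 were called, 20 with 1 transcript per gene and 343 with DESeq2, which again called 1 wider pathway gene.

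A replicate block gave 117 called transcripts in the Ehmt2 cross and 10 in the Ezh2 cross. Under the block Fgfr2 in the Ehmt2 cross was at 1.92 (edgeR adjusted p = 0.0552) and no call among the 9 genes changed.

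Directions turned as follows. Dusp6 in the Ehmt2 cross was at -0.0042 with upper-quartile scaling, -0.01 with 1 transcript per gene, -0.16 without replicate 4 of both genotypes and -0.16 to 0.09 with 1 epiblast left out, and its difference between crosses was -0.06 without replicate 4. Leaving out 1 epiblast spread Fgf4 from -0.18 to 0.65 and Fgf15 from -0.31 to 0.10 in the Ehmt2 cross, and Fgf4 from -0.41 to 0.02, Fgfr2 from -0.21 to 0.83 and Spry2 from -0.30 to 0.01 in the Ezh2 cross. Without control 2 and knockout 1, Fgfr2 was at -0.06, against 0.41 with all epiblasts. The causes were not tested. Per-embryo differences moved by more than the spread of the controls in 4 of 126 comparisons, Fgf15 in Ezh2-/- epiblast 3 (0.33 with a pseudocount of 2 CPM) and Fgf15, Spry2 and Spry4 in Ehmt2-/- epiblast 4 (0.52, 0.36 and -0.08 against all controls).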
